A study of Mus musculus with 16 samples.

Results

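A set of 10 imprinted genes that regulate growth was followed across all libraries of the series: H19, Igf2, Igf2r, Dlk1, Meg3, Peg3, Cdkn1c, Grb10, Mest and Plagl1. They were taken by symbol, as 10 of the 40840 genes in the count table. H19 heads the set because of a measured value: it held more counts than any other gene in 3 of the 4 libraries of cells given DMSO for 48 hours. Its level in those libraries chose it, so its comparisons with them are descriptions without a test. The RNA came from p53-/-; Myc hepatoblasts, a mouse liver progenitor line that has lost the tumour suppressor p53 and overexpresses Myc. The line serves as a model of hepatocellular carcinoma. Every group carries these same alterations, so no group shows the genes without them. The 16 libraries form 4 groups of 4, with cells exposed either to sorafenib, a multikinase inhibitor used against liver cancer, or to its vehicle DMSO, for 48 hours or for 7 days. All come from a single cell line, and nothing states that replicates were separate cultures, so p-values measure the spread between these libraries, which may be technical.

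Imprinted genes are read mainly from the copy inherited from either the mother or the father, and many of them set fetal growth. In mouse tissues H19, Meg3, Igf2r, Cdkn1c and Grb10 are known as maternally expressed, and Igf2, Dlk1, Peg3, Mest and Plagl1 as paternally expressed. H19 and Igf2 share enhancers and a control region where the factor CTCF binds the unmethylated maternal copy. Both are abundant in fetal liver and silenced after birth. The count table does not separate the parental copies, so each value is the sum of both.

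The sequences that carry these facts are shown first. Between the outer ends of H19 and Igf2 on chromosome 7 of GRCm39 lies a window of 91433 bases. It was searched for 1 spelling of a CTCF core, 14 letters with any base allowed at the sixth and the ninth. These letters occurred 3 times on both strands together, with no overlap between matches. All 3 were on the minus strand, the strand of both genes, and lay 89, 544 and 1814 bases before the annotated start of H19, at chr7:142134046-142134059, chr7:142134501-142134514 and chr7:142135771-142135784. Of 27929 windows of that length across the genome, 0.186% held at least 1 match, and 0.00716% (2 windows) held 3 or more. These are shares of this exact spelling and not of CTCF sites. Nothing states that the letters were chosen apart from this locus, so the shares are a description and no test of it. Each match is shown in capitals with 15 bases on either side, because this stretch separates the genes whose levels are compared below.
CTCF match 1: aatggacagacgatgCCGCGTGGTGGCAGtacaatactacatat
CTCF match 2: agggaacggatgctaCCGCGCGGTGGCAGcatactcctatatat
CTCF match 3: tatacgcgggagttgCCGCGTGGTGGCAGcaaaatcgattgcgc

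The H19 transcript is also the precursor of miR-675, and Igf2 and Mest host miR-483 and miR-335. The mature forms in RefSeq are printed with the seed, bases 2 to 8, in capitals. No seed was shared among the 6.
miR-675-5p (H19): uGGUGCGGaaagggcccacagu
miR-675-3p (H19): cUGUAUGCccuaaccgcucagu
miR-483-5p (Igf2): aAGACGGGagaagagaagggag
miR-483-3p (Igf2): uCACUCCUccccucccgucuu
miR-335-5p (Mest): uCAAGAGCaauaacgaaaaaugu
miR-335-3p (Mest): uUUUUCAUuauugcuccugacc
The libraries were made from messenger RNA, so mature miRNAs were not measured. The hairpin row of miR-675 held 0 counts in all 16 libraries, that of miR-483 held 54 in total and that of miR-335 held 10. How reads shared by a hairpin and its host were assigned is not given, so these rows do not show whether a hairpin was made. The changes below are those of the host transcripts.

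Total counts ran from 16586254 to 30828427 per library. All 10 genes passed the filter of at least 10 counts over the 16 libraries, as did 20444 of all genes. Hepatoblast and liver epithelial markers were mixed. Krt8, Krt18, Krt19, Sox9, Foxa2 and Cdh1 had group means of 58.2 to 2626 normalized counts and Epcam of 2.78 to 29.3, while Afp, Alb, Hnf4a and Tbx3 had a mean under 10 in every group and Hnf4a was at 0 in every library. With sorafenib Sox9 was higher by 1.64 at 48 hours and 1.37 at 7 days on the log2 scale, and Krt19 changed by −0.77 and −0.52. Epcam went from 29.3 to 6.17 normalized counts at 48 hours and from 18.3 to 2.78 at 7 days. Foxa2 went from 211 to 722 and from 480 to 862. Of the 9 tested epithelial markers, 3 were called higher and 4 lower at 48 hours, and 3 higher and 5 lower at 7 days. Summed, the epithelial list gave 3447 to 3740 normalized counts with DMSO and 3098 to 3442 with sorafenib at 48 hours. At 7 days it gave 2823 to 2944 and 3139 to 3325. Of 8 markers of fibroblasts and stellate cells, 7 had a mean above 10 in every group, and Lum had 8.84 with sorafenib at 48 hours and 0 counts in all 4 libraries at 7 days. Their summed normalized counts were 117416 to 119288 with DMSO and 126260 to 139612 with sorafenib at 48 hours, and 90437 to 95070 and 63681 to 65230 at 7 days. Most of the sum was Col1a1 and Col3a1, which at 48 hours went from 41939 to 81072 and from 70778.5 to 46413. Of the 8 markers, 3 were called higher and 4 lower at 48 hours, and 2 higher and 6 lower at 7 days. Among all tested genes 26.9% were higher and 27.7% lower at 48 hours, and 28.9% and 27.9% at 7 days. The endothelial markers Pecam1 and Cdh5 and the leukocyte markers Ptprc and Adgre1 had group means under 10. Kdr, also on the endothelial list, was higher with sorafenib by 1.32 and 2.65. Tek, on the same list, went the other way, from 18.1 to 6.15 normalized counts at 48 hours and from 13.5 to 6.97 at 7 days. The sum of that list, most of it Kdr, was 55.7 to 98.0 with DMSO and 119 to 151 with sorafenib at 48 hours. At 7 days it was 36.8 to 61.3 and 196 to 228. Cd68, on the leukocyte list, had group means of 66.0 to 69.1, and Csf1r went from 69.7 to 13.8 at 7 days. The sum of the leukocyte list was 75.5 to 88.0 with DMSO and 61.9 to 89.8 with sorafenib at 48 hours, and 125 to 157 and 75.2 to 86.9 at 7 days. The part of cell composition in the results was not tested, and in bulk RNA fewer cells of a type and less RNA per cell cannot be told apart. The library of sorafenib for 48 hours replicate 2 stood apart: relative to its group, the median log2 deviation of its genes on chromosomes 15 to 19 and X, minus that on chromosomes 1 to 13, was −0.73. In the other 3 groups this step was at most 0.0061. Of the 10 genes, Igf2r on chromosome 17 lies in that part, and its values are given with and without this library. LOC118568312 and AY036118 together held 2.79% and 2.01% of counts in DMSO 48 hours replicates 2 and 3 and 3.04% in DMSO 7 days replicate 4, against at most 0.834% in the other libraries. Leaving out any of these 3 in turn changed no call among the 10 genes.

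H19 is a long noncoding RNA and, of the 10 genes, had the largest change at both times. Under DMSO at 48 hours it had 268526, 263864, 272987 and 280965 normalized counts (counts scaled to a common library size) in replicates 1 to 4. With sorafenib for 48 hours these were 24263, 28344, 21664 and 26908. The groups lay an order of magnitude apart and did not overlap, with a log2 difference of −3.42, or 10.7-fold, given without a test.

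At 7 days H19 had 152462, 130884, 137705 and 135924 normalized counts with DMSO. In the cells treated with sorafenib it had 1208, 1184, 1185 and 1229. The treated libraries were within a narrow band far below the vehicle libraries. The log2 fold change was −6.86 with a standard error of 0.077, a 115.9-fold fall (Benjamini-Hochberg FDR 1.26e-22 by the quasi-likelihood test of edgeR). Ordered from the lowest fitted log2 fold change at 7 days, H19 was at place 32 of the 20444 tested genes.

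As a share of all counts, H19 made up 1.06% to 1.16% of each DMSO library at 48 hours and 0.515% to 0.606% at 7 days. With sorafenib it made up 0.0832% to 0.113% at 48 hours and 0.0047% to 0.0049% at 7 days. In rank, H19 was the top gene in DMSO replicates 1, 3 and 4 at 48 hours and the third in replicate 2. The genes just behind it in replicates 1, 3 and 4 were Eef1a1 with 184408 counts, LOC118568312 with 246674 and Eef1a1 with 218272. In replicate 2, LOC118568312 with 424147 counts and AY036118 with 373562 stood above H19 with 304151. At 7 days it ranked 2 to 4 with DMSO. Under sorafenib it ranked 60 to 92 at 48 hours and 4917 to 5046 at 7 days. All 10 genes together fell from 1.69% to 1.83% of counts with DMSO to 0.326% to 0.372% with sorafenib at 48 hours, and from 0.908% to 1.03% to 0.160% to 0.161% at 7 days. H19 made up most of this sum with DMSO at both times. Its level in the DMSO libraries at 48 hours chose it, so the sum is a description and not a result about the other genes.

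**Figure D1:**
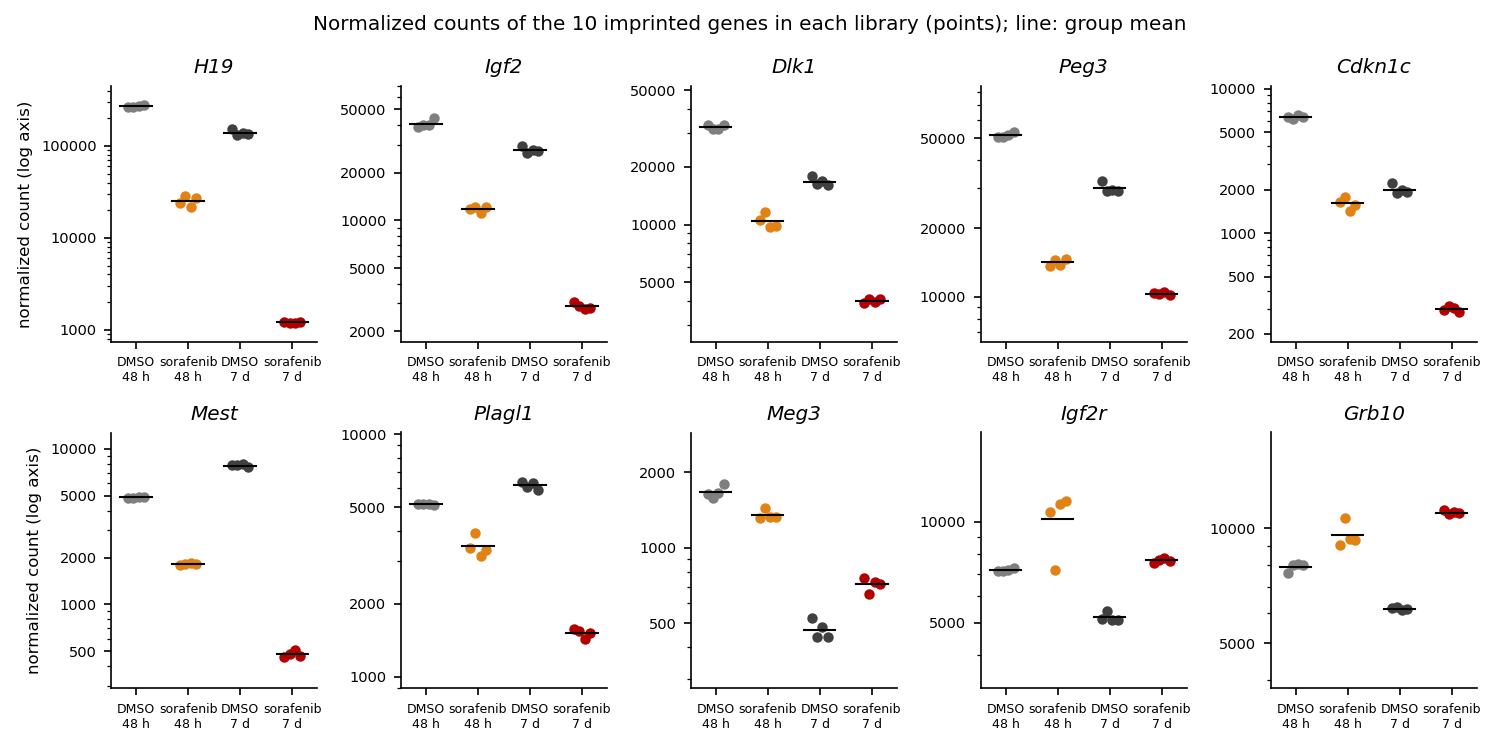
Normalized counts of each gene on a log axis, by group, with 1 point for each of the 4 libraries and a line at the group mean (each panel has its own scale). H19, Igf2, Dlk1, Peg3, Cdkn1c, Mest and Plagl1 were lower with sorafenib at both times, Grb10 was higher at both, Meg3 was lower at 48 hours and higher at 7 days, and 1 Igf2r library of the sorafenib group at 48 hours lay at the DMSO level.

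Igf2 encodes insulin-like growth factor 2, the fetal growth factor of the H19 domain. Its normalized counts at 48 hours were 39009, 39609, 40124 and 43895 with DMSO. With sorafenib they were 11768, 12203, 11181 and 12129. Every treated library lay below every vehicle library, and the log2 fold change was −1.78 with a standard error of 0.043 (FDR 1.04e-17, edgeR's quasi-likelihood test, Benjamini-Hochberg). At 7 days the counts were 29379, 26744, 27688 and 27204 with DMSO against 3052, 2877, 2747 and 2809 with sorafenib. That fall was larger, at −3.27 with a standard error of 0.046 (FDR 3.28e-21). The 9.67-fold change of Igf2 at 7 days was smaller than the 115.9-fold change of H19.

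Other paternally expressed genes also fell at both times. Dlk1, a transmembrane inhibitor of Notch-like signalling and a marker of hepatoblasts, went from 32234 ± 841 (SD, n = 4) to 10444 ± 847 normalized counts at 48 hours and from 16766 ± 807 to 4020 ± 84.9 at 7 days. Its log2 fold changes were −1.63 and −2.06. Peg3, a zinc finger protein, went from 51476 ± 1218 to 14149 ± 494 and from 30007 ± 1495 to 10314 ± 149, with log2 fold changes of −1.86 and −1.54. Both genes had their vehicle and treated libraries fully apart.

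Mest, an enzyme of the alpha/beta-hydrolase fold, had an early fall that grew. Its normalized counts at 48 hours were 4863, 4855, 4918 and 4918 with DMSO and 1793, 1809, 1832 and 1810 with sorafenib. At 7 days they were 7828, 7835, 7977 and 7658 against 461, 478, 511 and 465. The vehicle level thus rose with time while the treated level dropped further. The log2 fold change went from −1.43 (standard error 0.031) to −4.03 (standard error 0.035, FDR 8.97e-24 in edgeR), a 16.3-fold fall at 7 days.

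Plagl1, a zinc finger regulator that lowers proliferation and acts on other imprinted genes, went from 5133 ± 17.5 to 3444 ± 332 normalized counts at 48 hours, a log2 fold change of −0.58. At 7 days it went from 6139 ± 223 to 1512 ± 59.9, a change of −2.02. Cdkn1c encodes the cyclin-dependent kinase inhibitor p57, a brake on the cell cycle, and is the maternally expressed gene besides H19 that fell at both times. Its counts went from 6357 ± 153 to 1607 ± 148 at 48 hours (log2 fold change −1.99, standard error 0.057) and from 2001 ± 146 to 298 ± 12.1 at 7 days (−2.75, standard error 0.065). The falls therefore covered genes of either parental origin and genes that promote as well as restrain growth.

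Igf2r encodes the receptor that binds IGF2 and carries it to lysosomes for degradation. At 48 hours it had 7113, 7126, 7161 and 7278 normalized counts with DMSO. With sorafenib it had 10695, 7178, 11264 and 11516. Replicate 2 of the treated group, the library with lowered counts on chromosomes 15 to 19 and X, lay within the vehicle range, and the other treated libraries lay above it. The log2 fold change was 0.50 with a standard error of 0.091 (FDR 8.4e-05, edgeR's quasi-likelihood test), and without that library it was 0.64 with a standard error of 0.027. At 7 days Igf2r had 5131, 5403, 5103 and 5100 counts with DMSO against 7540, 7680, 7802 and 7630 with sorafenib. The groups did not overlap, and the log2 fold change was 0.56 (standard error 0.092, FDR 2.39e-05). Without sorafenib 48 hours replicate 2 in the shared fit it was again 0.56, with a standard error of 0.025 (FDR 2.2e-25, edgeR's quasi-likelihood test).

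Grb10 encodes an adaptor protein that dampens signalling from the insulin and IGF1 receptors. It rose from 7920 ± 181 to 9592 ± 700 normalized counts at 48 hours and from 6154 ± 49.8 to 10993 ± 111 at 7 days, with log2 fold changes of 0.28 (standard error 0.038) and 0.84 (standard error 0.038). Its treated and vehicle libraries did not overlap at either time.

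Meg3 is a long noncoding RNA made from the maternal copy of the Dlk1 domain. Its normalized counts at 48 hours were 1643, 1577, 1651 and 1803 with DMSO and 1320, 1441, 1330 and 1332 with sorafenib. At 7 days they were 523, 440, 483 and 440 against 758, 654, 732 and 719. Vehicle and treated libraries did not overlap at either time, and the order of the groups turned. The log2 fold change was −0.30 (standard error 0.056, FDR 0.00012) at 48 hours and 0.60 (standard error 0.063, FDR 6.26e-08) at 7 days, with Benjamini-Hochberg values of edgeR.

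In all, 7 of the 9 tested genes were lower and 2 higher at 48 hours at an FDR under 0.05. At that time 54.6% of all tested genes were called (27.7% lower and 26.9% higher). The largest FDR of the 9 was 0.00012. At 7 days 7 of 10 were lower and 3 higher, where 56.8% of all genes were called (27.9% lower and 28.9% higher). The largest FDR there was 2.39e-05, that of Igf2r with all 16 libraries in the fit. Without H19, whose vehicle level at 48 hours chose it, treated libraries lay below all vehicle libraries for 7 of 9 genes at that time and above them for 1, against 24.9% and 23.1% of all tested genes. At 7 days these numbers were 7 and 3 of all 10, against 28.4% and 28.5%. The median log2 fold change of the 10 genes, H19 included as a description, was −1.53 at 48 hours and −2.04 at 7 days, while that of all tested genes was −0.05 and 0.02. The counts of called genes were unchanged without sorafenib 48 hours replicate 2, at 9 and 10.

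The treatment effect was then compared between times with the interaction of treatment and time, the difference of the 2 log2 fold changes. Of the 9 genes tested, 5 had a lower effect at 7 days, 3 a higher one and 1 was not called. Among all genes 36.8% were called, 21.3% lower and 15.5% higher. Of these calls 42.1% were higher, and 55.6% were with scaling to total counts only. The largest shift was that of Mest, at −2.60 (standard error 0.046, FDR 2.07e-18 in edgeR). Igf2 shifted by −1.49, Plagl1 by −1.44, Cdkn1c by −0.76 and Dlk1 by −0.43, so their falls were deeper after the longer exposure. The fall of Peg3 was shallower, with an interaction of 0.32, and Meg3 and Grb10 shifted upward by 0.90 and 0.56. For Igf2r the interaction was 0.06 with a standard error of 0.129 (FDR 0.77), and −0.08 with a standard error of 0.037 (FDR 0.096) without the library that stood apart, so its sign changed with that library. The H19 difference was −3.43, given without a test.

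Vehicle cells were also compared between times, where time and culture batch cannot be told apart. With DMSO, 7 of the 9 tested genes were lower at 7 days than at 48 hours and 2, Mest and Plagl1, were higher, against 49.4% of all genes called (25.5% lower and 23.9% higher). Meg3 dropped most, by 1.83 on the log2 scale, followed by Cdkn1c with −1.67 and Dlk1 with −0.94. The smallest changes were 0.26 for Plagl1 and −0.36 for Grb10. H19, given without a test, was 1.95-fold lower. Libraries of the times did not overlap for any of the other 9 genes, with 7 lower and 2 higher, where 25.9% and 24.9% of all genes had such a separation.

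With sorafenib, where time and culture batch again cannot be told apart, 9 of the 10 genes were lower at 7 days than at 48 hours. Only 1, Grb10, was higher, against 39.7% of all genes called (22.3% lower and 17.5% higher). H19 fell by 4.40 on the log2 scale (standard error 0.069, FDR 2.59e-19 in edgeR), which placed it at 14 from the lowest among all tested genes. Cdkn1c changed by −2.43, Igf2 by −2.04, Mest by −1.92 and Dlk1 by −1.38. The libraries were fully apart for 8 lower genes and 1 higher gene, as for 19.7% and 16.1% of all genes. For Igf2r they overlapped, since 7178 in sorafenib 48 hours replicate 2 lay below the 7-day values. Its log2 change was −0.41, or −0.54 without that library. Igf2r was not called with only the 8 sorafenib libraries in the fit (FDR 0.054, edgeR), which leaves 8 of the 9 lower genes called. With DMSO over the same time it changed by −0.47, with or without that library in the fit. Meg3 and Peg3 fell more with DMSO (−1.83 and −0.78) than with sorafenib (−0.92 and −0.46). Igf2, Dlk1 and Cdkn1c fell less with DMSO, as did H19, given without a test, and Mest and Plagl1 rose.

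To compare the genes with each other, counts were divided by exon length and library size and expressed as RPKM, reads per kilobase of exon scaled to library size. With DMSO at 48 hours the level of H19 was 3794 ± 102 (SD, n = 4), far above Igf2 with 263 ± 14.2, Dlk1 with 213 ± 5.55, Peg3 with 149.9 ± 3.55 and Cdkn1c with 117 ± 2.82. Grb10 and Igf2r followed with 30.7 ± 0.703 and 30.4 ± 0.318 and did not differ beyond their spread, and neither did Mest (24.1 ± 0.169) and Plagl1 (23.9 ± 0.0813). Meg3 was last with 3.44 ± 0.197 per kilobase over the long exon union of its annotation.

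After 48 hours of sorafenib H19 still led with an RPKM of 353 ± 41.2. The libraries of Igf2 and Dlk1 overlapped next, and so did those of Igf2r with Peg3 and of Peg3 with Grb10. With DMSO at 7 days the order began again with H19 (1945 ± 129.6), Igf2, Dlk1 and Peg3, and Mest and Cdkn1c overlapped below them. Sorafenib for 7 days gave another order. Grb10 led with 42.7 ± 0.432 and Igf2r followed with 32.5 ± 0.465, ahead of Peg3 with 30.0 ± 0.435, Dlk1 with 26.5 ± 0.560, Igf2 with 18.5 ± 0.849 and H19 with 16.8 ± 0.297. No neighbours in this order overlapped. H19 thus went from the first to the sixth place among the 10, and Grb10 from the sixth with DMSO at 48 hours to the first.

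**Figure D2:**
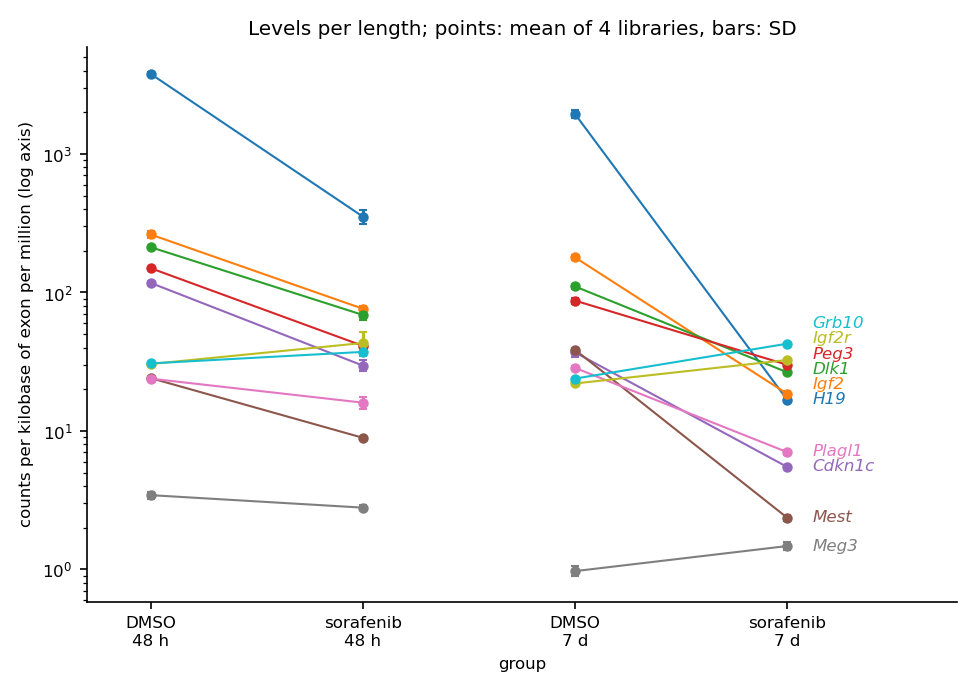
Mean RPKM of each gene in the 4 groups, on a log axis, with the SD of 4 libraries and lines that join DMSO with sorafenib of the same time. H19 lies above all others in 3 groups and at 16.8 after 7 days of sorafenib, where Grb10 is highest with 42.7.

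Ratios of counts within a library do not depend on its scaling, and are given as a description for pairs chosen after their values were seen. H19 had 6.69 ± 0.212 (SD, n = 4) counts for each Igf2 count with DMSO at 48 hours and 2.14 ± 0.170 with sorafenib. At 7 days the H19 to Igf2 ratio was 5.01 ± 0.125 and 0.419 ± 0.0190. The drop in H19 was thus larger than that in Igf2 within the libraries themselves. The ratio of Igf2 to its clearance receptor Igf2r went from 5.67 ± 0.246 to 1.21 ± 0.329 at 48 hours, where replicate 2 had the highest treated value of 1.70. At 7 days it went from 5.36 ± 0.320 to 0.375 ± 0.0220. Dlk1 to Meg3 went from 19.4 ± 0.863 to 7.70 ± 0.388 and from 35.6 ± 1.36 to 5.64 ± 0.457. For each of these 3 pairs the treated libraries lay below the vehicle libraries at both times.

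**Figure D3:**
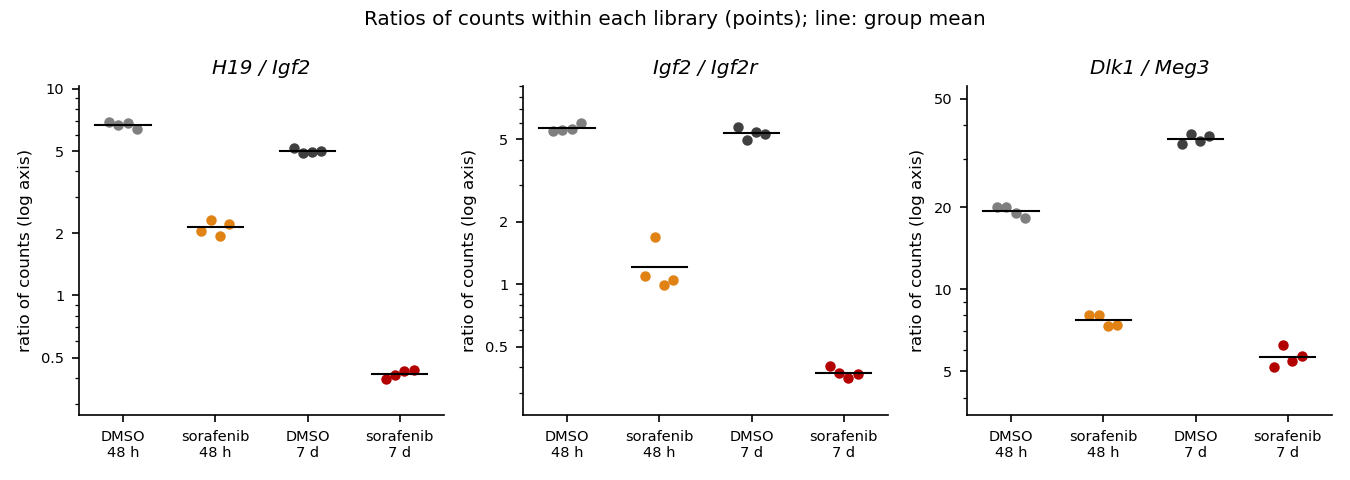
Ratios of counts of H19 to Igf2, Igf2 to Igf2r and Dlk1 to Meg3 on log axes, with 1 point for each of the 4 libraries of a group and a line at the mean. Sorafenib libraries lie below DMSO libraries in each panel, and the H19 to Igf2 ratio is under 1 only after 7 days of sorafenib, at 0.419.

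The domains around the 10 genes were read from a list of 41 neighbours, of which 40 had a row in the table and 29 passed the filter. At 48 hours 17 of the 29 were lower, 5 higher and 7 not called, with a median log2 fold change of −0.55, where 27.7% of all tested genes were lower and 26.9% higher and their median was −0.05. At 7 days 13 were lower, 6 higher and 10 not called, with a median of −0.14, where 27.9% of all were lower and 28.9% higher and their median was 0.02. The strand setting of the counting is not stated, so reads of overlapping antisense partners (Igf2os with Igf2, Airn with Igf2r) cannot be told apart with certainty, and neither can reads of the joined transcripts Meg3, Rian and Mirg.

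Next to H19, Igf2os, a transcript antisense to Igf2, fell with it from 326 to 120 normalized counts at 48 hours (log2 fold change −1.45) and changed by −3.29 at 7 days. Lsp1 and Mrpl23, farther along the same chromosome, had smaller log2 fold changes of −0.58 and −0.38 at 48 hours. Tnnt3, also farther along, changed by −1.40 with a standard error of 0.287, from 22.3 to 8.27 normalized counts. Near Cdkn1c the neighbours went both ways. Phlda2, a maternally expressed gene that limits placental growth, was higher by 1.06 and 1.84, and Osbpl5 by 0.82 and 0.80. Kcnq1ot1, the noncoding RNA that silences the paternal copy of this domain, changed by −0.30 at 48 hours and by −0.08 at 7 days, where it was not called (FDR 0.38, edgeR's quasi-likelihood test). Dhcr7, an enzyme of the last step of cholesterol synthesis, changed by −1.25 and −1.78.

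Zim1, a maternally expressed zinc finger gene beside Peg3, had the deepest change of the neighbours with at least 100 normalized counts at 48 hours. It went from 4813 to 495 at 48 hours and from 1631 to 173 at 7 days, with log2 fold changes of −3.29 (standard error 0.076) and −3.23 (standard error 0.085). Usp29, which starts beside Peg3 and runs the other way, changed by −1.36 and −1.32. So both tested neighbours of Peg3 moved in the same direction as Peg3, and Zim1 by more.

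In the Dlk1 domain, Rian, the snoRNA host downstream of Meg3, went from 2389 to 1592 normalized counts at 48 hours and from 668 to 728 at 7 days, with log2 fold changes of −0.59 and 0.12. Its sign thus turned with that of Meg3. Its libraries overlapped at 7 days, however, with 642 to 698 for DMSO and 696 to 766 for sorafenib. Mirg, the miRNA host farther on, changed by −0.74 and, not called at 7 days, by −0.14. The paternally expressed Rtl1 changed by −2.24 and −1.25 and Begain by −1.19 at 48 hours, also lower at 7 days, the same direction as Dlk1 at both times. Airn, the noncoding RNA antisense to Igf2r, changed by −0.82 and −0.32 while Igf2r was higher, and by −0.76 at 48 hours without the library that stood apart. Beside Grb10, Cobl rose by 2.45 and 2.09 and Ddc, the dopa decarboxylase, changed by −0.55 and −3.01. Copg2 beside Mest was higher by 0.27 and 0.25 while Mest fell, and Phactr2 beside Plagl1 was not called at either time, with log2 fold changes of 0.08 and 0.06 (FDR 0.23 and 0.39).

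**Figure D4:**
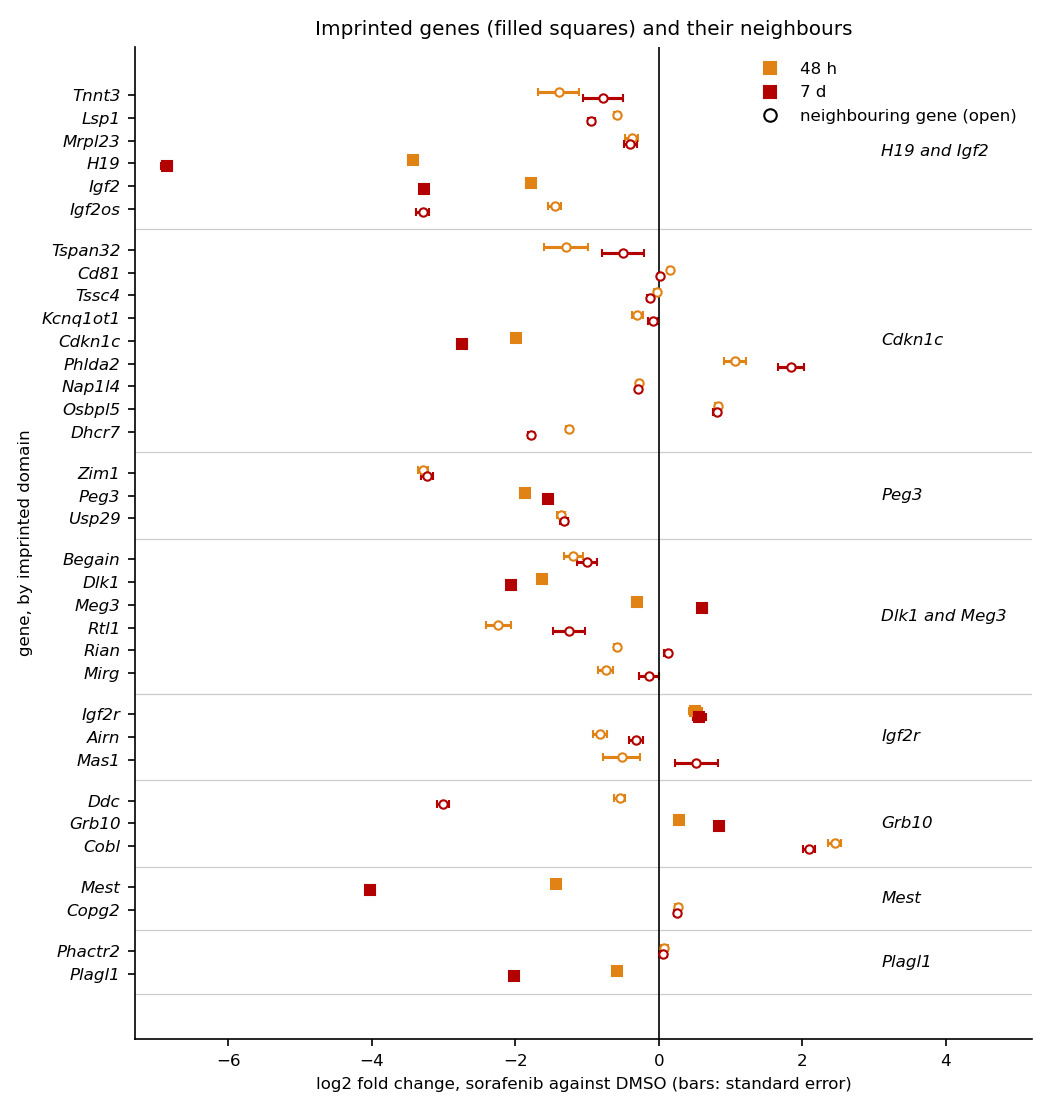
Log2 fold change of sorafenib against DMSO at 48 hours and 7 days for the 10 genes (filled squares) and their 24 neighbours that averaged 10 normalized counts or more (open circles), grouped by domain, with the standard error of the fit. Neighbours of Peg3 were lower along with it, while those of Cdkn1c, Grb10 and Mest included genes with the opposite sign.

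Imprinted genes elsewhere in the genome had mixed directions. Of 34 tested, 15 were higher and 13 lower at 48 hours, and 9 higher and 16 lower at 7 days, with medians of 0.07 and −0.22. Among all tested genes 26.9% were higher and 27.7% lower at 48 hours, and 28.9% and 27.9% at 7 days. Gatm, which makes the creatine precursor, rose by 2.26 and 0.93, and Pon2, an antioxidant lactonase, by 1.30 and 1.23. Ndn, a growth suppressor, changed by −1.29 and −0.55. Dcn, the matrix proteoglycan decorin, was higher at 48 hours (0.43) and lower at 7 days (−2.30), and is also on the list of fibroblast markers.

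Of 18 tested genes of the IGF axis and of the postnatal silencing of fetal liver genes, 8 were higher and 8 lower at 48 hours (all tested genes 26.9% and 27.7%), and 7 higher and 10 lower at 7 days (28.9% and 27.9%), with medians of 0.23 and −0.24. Igfbp5, which binds IGFs outside the cell, went from 1538 to 104 normalized counts at 48 hours and from 1679 to between 12.4 and 21.9 per library at 7 days, with log2 fold changes of −3.94 and −6.59. Igf1, the other ligand, went from 371 to 162 and from 151 to 50.5 (−1.21 and −1.57). Igfbp7 was higher by 1.72 and 1.00. The receptors Igf1r and Insr rose by 0.26 and 0.22 at 48 hours and by 0.33 and 0.35 at 7 days, and the adaptor Irs1 by 0.61 and 0.66. So transcripts of both ligands were lower while those of all 3 receptors, Igf2r included, were higher.

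Zhx2 is known in mice as a repressor of H19, Afp and Gpc3 in the liver after birth. It went from 170 to 583 normalized counts at 48 hours and from 176 to 807 at 7 days, with log2 fold changes of 1.78 and 2.20. Gpc3, a membrane proteoglycan of fetal liver, went from 18261 to 9932 and from 8882 to 4239 (−0.88 and −1.07). Both lie on chromosomes with lowered counts in sorafenib 48 hours replicate 2, and without that library their log2 fold changes at 48 hours were 1.92 and −0.74. Afp was under 10 normalized counts in every group. A part of Zhx2 in the changes of H19 and Gpc3 was not tested.

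Of 7 tested genes that maintain imprints, 5 were lower and 0 higher at 48 hours (edgeR's quasi-likelihood test), and 4 lower and 1 higher at 7 days, with medians of −0.32 and −0.36. Over all tested genes 27.7% were lower and 26.9% higher at 48 hours and 27.9% and 28.9% at 7 days. At an unadjusted p under 0.05 and with DESeq2 the counts at 48 hours were again 5 lower and 0 higher. Without sorafenib 48 hours replicate 2 they were 5 lower and 2 higher, the latter being Zfp57 (0.26) and Smchd1 (0.16), both on chromosome 17, and with limma voom 5 and 2. At 7 days leaving out that library gave 5 lower and 2 higher. The gene higher at 7 days was Dnmt1, the maintenance DNA methyltransferase, by 0.08. Trim28, the corepressor that imprint-binding zinc finger proteins recruit, changed by −0.60 and −0.56, and Zfp445, one of those proteins, by −0.52 and −0.44. Ctcf, the gene of the factor whose matches are printed above, changed by −0.32 and −0.71. Uhrf1, which brings Dnmt1 to newly copied DNA, changed by −0.70 and −0.36, and by −0.55 at 48 hours without that library. These are smaller in size than the changes of H19, Igf2, Dlk1, Peg3, Mest and Cdkn1c, but not than those of all 10 genes. At 48 hours Trim28 changed by more in size than Meg3 (−0.30) and Grb10 (0.28). At 7 days Ctcf changed by more than Meg3 (0.60) and Igf2r (0.56). The dataset holds no methylation values.

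Likeness of pattern was measured as the root-mean-square difference of log2 normalized counts over the 16 libraries, after each gene's mean was subtracted, among 10645 genes with a mean of at least 100. The libraries share groups, so this is a description. H19 itself had a root-mean-square spread of 3.02. Nearest to it were Shisal1 (0.330), Aldh1a2 (0.414), Aldoc (0.451), Nrep (0.660) and Cd200 (0.663). Aldh1a2, a retinoic acid synthesis enzyme, went from 3434 to 536 and from 2916 to 24.2 normalized counts. Aldoc, a glycolytic aldolase, went from 4493 to 435 and from 1598 to 30.0. Nearest to Igf2 were Bcar3 (0.119), Nhsl2 (0.156) and Sv2a (0.180), and neither gene's list held another of the 10. Shisal1, Nrep and Cd200 lie on chromosomes 15, 18 and 16 and Nhsl2 on X, a part with lowered counts in sorafenib 48 hours replicate 2. The distances include that library.

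Promoter sequences, from 250 bases before to 50 bases after a start, were found in the RefSeq tables of GRCm38.p6 for 8 of the 10 genes, 15 promoters in all. H19 and Cdkn1c had no entry. The E-box CACGTG, the letters bound by Myc with its partner Max, occurred in 2 of the 15, against 7.15% of all 32851 promoters. The AP-1 letters TGANTCA occurred in 0 of 15 (7.81% of all) and the GC box GGGCGG in 8 of 15 (35.7%), each searched on both strands. The 15 are not all separate sequences. The Mest promoters at chr6:30737800-30738099 and chr6:30737803-30738102 share almost all their bases, and each is counted with a GC box. The median ratio of observed to expected CpG was 0.590 in the 15 and 0.384 in all promoters. The promoters with an E-box were those of Igf2r, which was higher with sorafenib, and Plagl1, which was lower. Their 250 bases before the start are shown because Myc is overexpressed in every group, with the E-box in capitals, 48 and 7 bases before the start of Igf2r and 182 before that of Plagl1. Their positions in GRCm38.p6 are chr17:12769707-12769956 on the minus strand and chr10:13090582-13090831 on the plus strand.
Igf2r: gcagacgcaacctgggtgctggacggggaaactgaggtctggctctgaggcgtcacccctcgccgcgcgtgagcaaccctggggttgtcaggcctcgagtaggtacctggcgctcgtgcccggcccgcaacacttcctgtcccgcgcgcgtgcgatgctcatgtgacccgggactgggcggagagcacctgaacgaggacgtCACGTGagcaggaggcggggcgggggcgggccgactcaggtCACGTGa
Plagl1: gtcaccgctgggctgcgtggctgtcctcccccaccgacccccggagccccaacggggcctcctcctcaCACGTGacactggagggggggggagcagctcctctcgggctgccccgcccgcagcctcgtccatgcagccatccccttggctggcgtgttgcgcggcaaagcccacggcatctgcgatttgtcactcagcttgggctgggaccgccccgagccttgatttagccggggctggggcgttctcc

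The genes lie in GRCm39, by GENCODE, as follows. H19 spans chr7:142129262-142133957 and Igf2 chr7:142204503-142220694, both on the minus strand. Cdkn1c lies on the same chromosome at chr7:143012069-143014806 and Peg3 at chr7:6706882-6733468. Dlk1 and Meg3 lie at chr12:109418749-109429262 and chr12:109506877-109538165. Igf2r spans chr17:12901293-12988614, Grb10 chr11:11880498-11988683, Mest chr6:30723546-30752058 and Plagl1 chr10:12936248-13007438. H19 and Meg3 are annotated as long noncoding RNA and the other 8 as protein coding.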

How the data were processed

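Per the labels and the study's methods, RNA of each library was made into a stranded messenger RNA library, reads were aligned to GRCm39 with STAR 2.7.1a, and the authors deposited raw counts per gene. The submitters' processing notes name featureCounts 2.0.6 for the counting. The annotation and the strand setting of the counting are not given in the sources used here. From these counts, genes with fewer than 10 counts over the 16 libraries were removed. Normalized counts are counts divided by library total and TMM factor, relative to the geometric mean over libraries. One model with a coefficient for each of the 4 groups was fitted with edgeR 4.0.16 (R 4.3.3, quasi-likelihood test), and a call needed an FDR (Benjamini-Hochberg, over all 20444 tested genes) under 0.05. Alternatives were DESeq2 1.42.0, limma 3.58.1 (voom), other scalings and filters, a replicate block, and each library left out in turn. The fit was tested on simulated counts.

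The 10 genes and all lists were chosen with earlier results of these data known. Named from the lists of other imprinted genes, IGF axis genes and imprint maintenance genes were, for each treatment contrast, the 3 called genes with the largest absolute log2 fold change among those averaging 100 normalized counts or more, and the 5 genes nearest to H19 and 3 nearest to Igf2. Neighbours, markers and other listed genes named in the text were chosen after their values were seen. No library was a copy of another: the lowest chi-square per gene between libraries of a group was 1.58. At 3 counts, a normalized count of 2.44 to 4.54, a level cannot be told from stray reads, and all 10 genes were above this in each library. RPKM values were computed from the deposited counts. Exon lengths and positions are those of GENCODE M39, in which all 10 matched by symbol. Sequences of miRNAs and promoters are from RefSeq (GRCm38.p6). A further liver marker is not reported here.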

Additional observations from a re-analysis of the deposited data

Results flagged for a closer look

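In groups of 4 libraries, the highest or lowest library lay far from the other 3 in 4 of the 40 combinations of gene and group, where chance flags about 1 in 20. These were Igf2r in DMSO 7 days replicate 2, with 5403 normalized counts, Meg3 in sorafenib 48 hours replicate 2, with 1441, Peg3 in DMSO 7 days replicate 1, with 32227, and Grb10 in DMSO 48 hours replicate 1, with 7651. No gene was singled out in more than 1 group.

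The treatment effect differed between 48 hours and 7 days by the interaction test of edgeR for 8 of the 9 genes tested. On the log2 scale the differences were −1.49 for Igf2, −0.43 for Dlk1, 0.90 for Meg3, 0.32 for Peg3, −0.76 for Cdkn1c, 0.56 for Grb10, −2.60 for Mest and −1.44 for Plagl1. Each of the 8 kept its sign and its side of the threshold under the 24 alternatives run without a fold-change limit.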

How the results depend on the processing

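All 10 genes kept the direction of both treatment effects under each of the 25 alternatives run without a fold-change limit, and for the tested ones the largest FDR at 48 hours was 0.0118 (Igf2r, with only the 8 libraries compared). Requiring also a log2 change of 1 or more in size lowered the called genes among the 10 to 5 at 48 hours, 7 at 7 days (Igf2r, Meg3 and Grb10, the genes higher there, were lost), 3 for the interaction, 2 for DMSO over time and 6 for sorafenib over time, and the calls over all genes from 11158 to 3690 at 48 hours, from 11613 to 4202 at 7 days, from 7515 to 1965 for the interaction, from 10100 to 2242 for DMSO over time and from 8120 to 1727 for sorafenib over time. The interaction of Igf2r, not called, was 0.059 and changed sign with limma voom (−0.0496) and without sorafenib 48 hours replicate 2 (−0.0752, the lowest with a library left out, the highest being 0.153), and the cause was not tested. The fall of Igf2r with sorafenib over time was not called with only the 8 libraries compared (−0.37, FDR 0.054). H19 had 14.5 times the level of Igf2 per kilobase with DMSO at 48 hours and 6.69 times the normalized counts, a difference made by the exon lengths.

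Nothing states that the replicate numbers pair the libraries. Deviations of libraries with the same number correlated on average by −0.0082 (48 hours) and 0.0718 (7 days). Those with different numbers correlated by 0.0027 and −0.0232. At 7 days the same-number values ran from −0.0056 to 0.128 and the others from −0.167 to 0.115, so pairing was not settled. With the number as a block, 9, 10 and 8 of the genes were called at 48 hours, at 7 days and in the interaction, as without it, and over all genes the calls were 10644, 11027 and 6987. The block could not be fitted for the comparisons over time. Depth was no limit for the 10 genes, of which the lowest group mean was 298 normalized counts.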
